A study of Homo sapiens with 8 samples.

Results

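NOTCH signalling in 2 human T-cell acute lymphoblastic leukaemia lines, MOLT-4 and DND-41, was followed through 10 genes of the 63677 counted. They were the receptors NOTCH1, NOTCH2 and NOTCH3, the DNA-binding partner RBPJ, and 6 genes known as direct NOTCH1 targets in this leukaemia (HES1, HES4, DTX1, NRARP, CR2 and SHQ1). They were picked by symbol as known members of the pathway, with earlier results of these data known, and all 10 were found in the count tables of both lines. Cells of each line were cultured with 100 nM ACBI-1 or with its solvent DMSO for 24 h, and total RNA was sequenced as paired-end reads from strand-specific libraries. The 4 groups were MOLT-4 with ACBI-1, MOLT-4 with DMSO, DND-41 labelled ACBI-1 and DND-41 labelled DMSO, with 2 libraries each. ACBI-1 is a bifunctional degrader that recruits the VHL ubiquitin ligase to the bromodomains of SMARCA2, SMARCA4 and PBRM1, subunits of the BAF and PBAF chromatin remodellers. It removes proteins, so no transcript in these libraries reads out directly whether degradation took place. Each line is a single established culture, and nothing in the labels says whether the 2 libraries of a group came from separate cultures, so p-values measure no more than library-to-library spread, which may be technical.

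NOTCH receptors are cut on ligand binding, first by ADAM metalloproteases and then by γ-secretase, and the released intracellular domain enters the nucleus. There it joins RBPJ and a Mastermind coactivator on DNA and turns on genes such as HES1 and DTX1, while RBPJ without it holds corepressors. In T-cell leukaemia NOTCH1 is commonly activated by mutation, and both MOLT-4 and DND-41 are well-known examples of lines with an activated NOTCH1.

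The core of the sequence that RBPJ recognises is TGGGAA, read as TTCCCA on the other strand. Promoters of the genes were taken from RefSeq (GRCh38.p14), as the 250 bases before the start of transcription, and searched for that core on both strands. Of the 10 genes, 9 had an entry, with 13 windows in all because RBPJ has several starts, and DTX1 had none. HES1, HES4 and 1 window of RBPJ held a match, and these 3 of the 13 windows are shown because they held one. They belong to a canonical target, to its paralog and to the factor itself. The capitals mark the matches, and each sequence is written 5′ to 3′ on the strand of its gene.
HES1 promoter, chr3:194135898-194136147, plus strand: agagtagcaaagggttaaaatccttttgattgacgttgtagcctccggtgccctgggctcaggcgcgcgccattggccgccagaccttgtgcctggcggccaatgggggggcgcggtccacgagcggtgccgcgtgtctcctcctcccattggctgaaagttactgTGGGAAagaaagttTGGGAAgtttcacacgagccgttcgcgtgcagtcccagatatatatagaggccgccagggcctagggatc
HES4 promoter, chr1:1000098-1000347, minus strand: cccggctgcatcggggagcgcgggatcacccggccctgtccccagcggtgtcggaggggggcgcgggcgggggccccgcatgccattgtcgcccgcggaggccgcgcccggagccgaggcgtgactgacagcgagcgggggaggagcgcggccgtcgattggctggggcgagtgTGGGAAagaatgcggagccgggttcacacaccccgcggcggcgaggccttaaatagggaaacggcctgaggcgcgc
RBPJ promoter, chr4:26319496-26319745, plus strand: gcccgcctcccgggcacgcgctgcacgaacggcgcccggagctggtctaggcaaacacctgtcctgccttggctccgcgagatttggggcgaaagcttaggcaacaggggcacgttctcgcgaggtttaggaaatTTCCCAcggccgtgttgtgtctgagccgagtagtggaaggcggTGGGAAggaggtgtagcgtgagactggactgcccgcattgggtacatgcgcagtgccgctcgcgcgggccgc
In HES1 the matches began 84 and 70 bases before the start, in HES4 76 bases before it, and in RBPJ 115 and 72 bases before it. The first HES1 match, the HES4 match and both RBPJ matches also fit the longer GTGGGAA or its reverse complement TTCCCAC. Of 35116 RefSeq promoter windows of the same length, 20.8% held TGGGAA on either strand, 2.90% held it at least 2 times, and 5.43% held GTGGGAA. A match is a stretch of letters and not a measured binding site, and the other windows lack only these letters.

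The libraries held between 21308737 and 22067644 counts over genes, with 21636 to 23243 genes detected and 5.89% to 9.67% of counts on mitochondrial genes. Levels are given as CPM, counts scaled to the TMM-adjusted total in the unit of that name, on 1 scale for all 8 libraries. The 7 T-lineage markers CD3D, CD3E, CD3G, CD7, CD2, LCK and PTCRA summed to between 2114 and 2236 CPM in MOLT-4 and between 3106 and 3366 CPM in DND-41. PTCRA was at 0 in the 2 DND-41 libraries numbered 1 and at no more than 0.0424 CPM in those numbered 2. Of 9 markers of B cells, myeloid and erythroid cells, epithelium and fibroblasts, 4 or 5 were at 0 in each library, and without the B-lineage gene CD79A they summed to at most 15.1 CPM. Those 15.1 CPM stood in MOLT-4 ACBI-1 library 2, where the fibroblast collagen COL1A1 reached 14.3 CPM, while the sum was 0.630 to 1.80 CPM elsewhere. CD79A split along the same contrasts as the NOTCH genes. It stood at 0.509 and 0.275 CPM in MOLT-4 with ACBI-1, against 4.58 and 4.59 CPM with DMSO (log2 fold change -3.51, edgeR adjusted p = 3.13e-14). In DND-41 it stood at 176 and 206 CPM in the libraries numbered 2, against 693 and 740 CPM in those numbered 1, and its part in the results was not tested.

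The DND-41 libraries did not group by their treatment labels. In MOLT-4, libraries of the same treatment differed by a chi-square of 2.85 per degree of freedom (ACBI-1) and 1.56 (DMSO) over gene counts, and libraries of different treatment by 55.7 to 57.0. In DND-41, the 2 libraries labelled ACBI-1 differed by 76.3 and the 2 labelled DMSO by 71.9, whereas the pair numbered 1 differed by 6.0 and the pair numbered 2 by 5.53. The authors' deposited DESeq2 table for DND-41 equals the libraries numbered 2 over those numbered 1 in 100% of 27069 genes, and the labelled contrast in 0.151%. For MOLT-4 the deposited table equals the labelled contrast, ACBI-1 over DMSO, in 100% of 27777 genes. Which DND-41 libraries received ACBI-1 is therefore not settled by the files, so DND-41 libraries are named below by their labels and numbers.

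In MOLT-4 cells all 3 receptors fell with ACBI-1. NOTCH1, the receptor most often activated in this leukaemia, stood at 185 and 171 CPM in the ACBI-1 libraries, against 841 and 839 CPM in the DMSO libraries. Both treated libraries lay far below both controls, and the means of 178 ± 9.31 and 840 ± 0.955 CPM (SD, n = 2 each) were 4.72-fold apart (log2 fold change -2.22, SE 0.0381, edgeR adjusted p = 3.21e-38). Fewer cells with the transcript and less transcript per cell cannot be told apart in these bulk libraries. NOTCH2 measured 78.6 and 80.6 CPM with ACBI-1, against 159 and 161 CPM with DMSO, a drop to 49.7% of its control level (log2 fold change -0.99, SE 0.0425, edgeR adjusted p = 1.16e-23). NOTCH3, itself a transcriptional target of NOTCH1 in T cells, stood at 5.13 and 4.22 CPM with ACBI-1, against 61.5 and 55.3 CPM with DMSO. It was 12.5-fold lower and thus the receptor with the largest relative change (log2 fold change -3.62, SE 0.0910, edgeR adjusted p = 2.71e-32). Counts for NOTCH2 are uncertain to the extent that reads were shared with its partial copy NOTCH2NL, which held 35 to 114 counts per library, against 1700 to 3591 for NOTCH2. The fourth receptor gene, NOTCH4, held 9 to 18 counts per library in both lines.

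RBPJ, which carries the complex to DNA, rose slightly. Its level was 172 CPM in both ACBI-1 libraries, against 149.6 and 142 CPM in the DMSO libraries, so the groups did not overlap but were only 1.18-fold apart (log2 fold change 0.26, SE 0.0398, edgeR adjusted p = 3.75e-07). The factor and the receptors thus moved in opposite directions in the same cells.

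Among the targets, HES1 showed the steepest loss of the 10 genes. HES1, a basic helix-loop-helix repressor and a widely used readout of NOTCH activity, had 0.879 and 0.825 CPM with ACBI-1, against 57.3 and 55.8 CPM with DMSO, which are 19 and 18 counts against 1152 and 1117. Treated cells kept 1.51% of the control level, a 66.4-fold difference (log2 fold change -6.02, SE 0.121, edgeR adjusted p = 6.67e-36). DTX1, a Deltex ubiquitin ligase that acts on NOTCH, stood at 7.45 and 6.28 CPM with ACBI-1, against 70.7 and 61.3 CPM with DMSO. That is 9.61-fold lower, and the libraries of the 2 treatments were again well apart (log2 fold change -3.25, SE 0.0856, edgeR adjusted p = 1.60e-31). CR2, the complement receptor that binds C3d, was at 14.1 and 13.3 CPM with ACBI-1, against 34.2 and 32.7 CPM with DMSO. Its 2.44-fold fall was the mildest among the targets that passed the test (log2 fold change -1.27, SE 0.0769, edgeR adjusted p = 1.89e-18).

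The 3 remaining targets did not follow HES1. SHQ1, an assembly factor for H/ACA ribonucleoproteins such as telomerase, measured 136 and 135 CPM with ACBI-1, against 143 and 144 CPM with DMSO, and did not pass the test (log2 fold change -0.06, SE 0.0400, edgeR adjusted p = 0.170). Its sign turned to 0.06 when libraries were scaled by total counts. HES4, a HES1 paralog, was barely detected, with 10 and 11 counts in ACBI-1 libraries against 9 and 14 in DMSO libraries (log2 fold change -0.22, SE 0.444, edgeR adjusted p = 0.687), so a moderate change could not be seen at this depth. NRARP, an ankyrin-repeat protein that limits NOTCH complexes, went up, with 26 and 17 counts in ACBI-1 libraries against 4 and 2 in DMSO libraries (log2 fold change 2.698, SE 0.524, edgeR adjusted p = 2.27e-05). Its summed counts were 43 with ACBI-1 (exact Poisson 95% interval 31.1 to 57.9, counting error only) and 6 with DMSO (2.20 to 13.1). NRARP passed the filter on low counts through its ACBI-1 libraries alone, so its call is conditional on being high there, and even the treated mean of 0.991 CPM was low.

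In all, 6 of the 10 genes fell in MOLT-4 and RBPJ rose, HES4 and SHQ1 did not pass the test, and NRARP was called higher under the filter limit just given. Among 14618 genes tested, 58.4% were called, 28.2% higher and 30.2% lower with ACBI-1. The median log2 fold change of the 10 genes was -1.13, beside 0.01 for all genes tested. Called genes other than NRARP kept their sign in each of the 4 fits that left out 1 library. The ACBI-1 library with COL1A1 at 14.3 CPM was among those left out. NRARP entered these fits through the same filter, so they add no support for its call. Such a fit assumes that the lone library of an arm varies like those of the other arm. When the spread was estimated over all 8 libraries, DND-41 included, only HES1 and NOTCH3 stayed under the threshold, and NOTCH1 had an edgeR adjusted p of 0.0546.

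**Figure D1:**
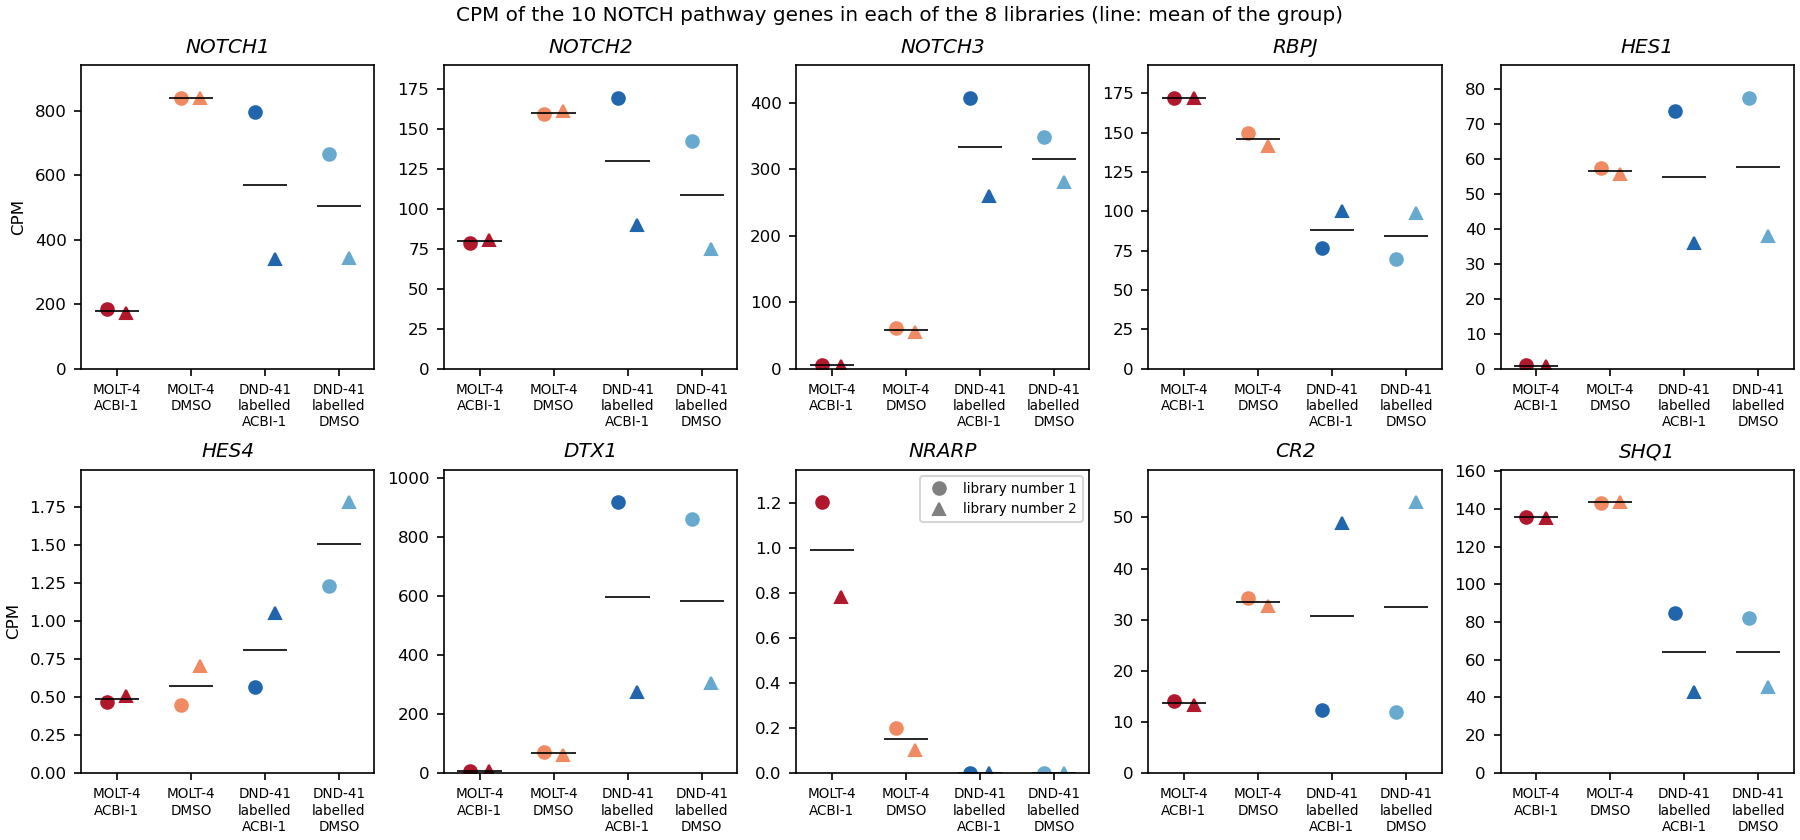
CPM of each of the 10 genes (y axis, linear from 0) in the 8 libraries, by group, with circles for libraries numbered 1, triangles for libraries numbered 2 and lines at group means. MOLT-4 ACBI-1 libraries lie below DMSO libraries for NOTCH1, NOTCH2, NOTCH3, HES1, DTX1 and CR2, whereas in DND-41 the circles and triangles part within each labelled treatment.

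Levels of different genes were compared per kilobase of exon. In MOLT-4 with ACBI-1 the order was led by SHQ1 at 23.2 ± 0.0898 CPM per kb, RBPJ at 18.6 and NOTCH1 at 17.2. The lowest means were those of NOTCH3 at 0.498, HES4 at 0.432 and HES1 at 0.413. Libraries of HES4 overlapped with those of HES1 and of NOTCH3. NRARP, at 0.679 and 0.440, overlapped with NOTCH3 and HES4. In MOLT-4 with DMSO NOTCH1 led at 80.9 CPM per kb, followed by HES1 at 27.4, SHQ1 at 24.6, RBPJ at 15.8, DTX1 at 15.0 and NOTCH2 at 9.54. RBPJ and DTX1 in DMSO did not differ beyond their spread (SD 0.591 and 1.52). CR2, at 6.85, was above NOTCH3, at 6.22, in both DMSO libraries. HES1 was thus among the lowest of the 10 with ACBI-1 and next to the highest with DMSO.

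In DND-41 compared as labelled, none of the 9 genes tested was called. The background in that comparison was 0% of 14602 genes by edgeR, with 37 at an unadjusted p under 0.05, and DESeq2 also called 0, with 10 at an unadjusted p under 0.05. Among the 9 genes, 0 had an unadjusted p under 0.05 by edgeR. These fits leave the split by library number in their spread, so a lack of calls does not show equal levels. A fit with a term for the number called 1349 of the 14602 genes, NOTCH1 and NOTCH2 among them. NOTCH1 stood at 797 and 340 CPM in the libraries labelled ACBI-1, against 666 and 342 CPM in those labelled DMSO (log2 fold change 0.17, SE 0.527, edgeR adjusted p = 0.99998). HES1 stood at 73.6 and 35.8 CPM under the ACBI-1 label, against 77.5 and 37.8 CPM under the DMSO label (log2 fold change -0.07, SE 0.498, edgeR adjusted p = 0.99998). The spread within a label exceeded the difference between labels for these and 6 further genes. HES4 alone had labelled groups that did not overlap, at 0.567 and 1.05 CPM under the ACBI-1 label, against 1.23 and 1.78 CPM under the DMSO label, where 16.2% of all genes tested had none.

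**Figure D2:**
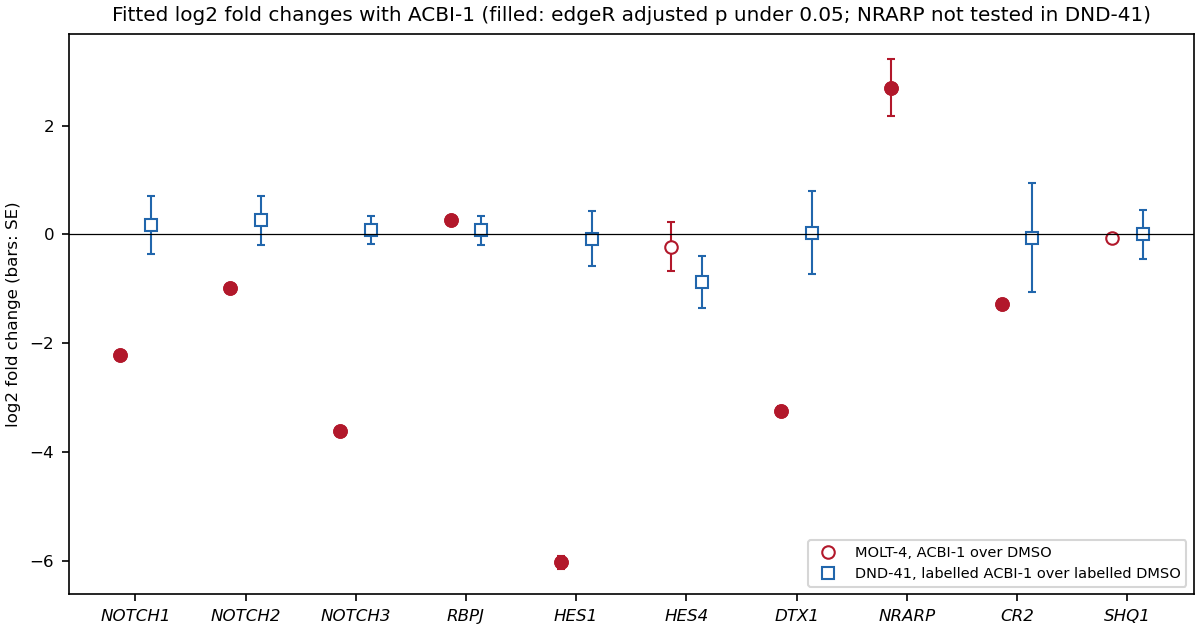
Fitted log2 fold changes (y axis, bars are SE) of the 10 genes for MOLT-4, ACBI-1 over DMSO (circles), and DND-41, labelled ACBI-1 over labelled DMSO (squares), with filled symbols for an edgeR adjusted p under 0.05. In MOLT-4 the values run from -6.02 (HES1) to 2.698 (NRARP), and in DND-41 none passed.

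Read by number, the DND-41 libraries split clearly for 8 of the 10 genes. The libraries of the 2 numbers did not overlap for these 8, where 75.4% of all genes tested did not, so the split is not particular to the NOTCH genes. NOTCH1 averaged 341 ± 1.53 CPM in the libraries numbered 2 and 731 ± 93.0 CPM in those numbered 1 (SD, n = 2 each). NOTCH2 averaged 82.3 ± 10.7 CPM in those numbered 2 and 156 ± 19.2 CPM in those numbered 1, and NOTCH3 averaged 270.2 ± 15.0 CPM in those numbered 2 and 378 ± 41.5 CPM in those numbered 1. All 3 receptors were thus lower under number 2. Of the targets, HES1 averaged 36.8 ± 1.43 CPM under number 2 and 75.6 ± 2.74 CPM under number 1, and DTX1 290.4 ± 22.4 CPM under number 2 and 890.3 ± 41.5 CPM under number 1. SHQ1 averaged 44.2 ± 1.95 CPM under number 2 and 83.6 ± 1.84 CPM under number 1. CR2 and RBPJ ran the other way. CR2 averaged 51.0 ± 2.87 CPM under number 2 and 12.1 ± 0.311 CPM under number 1, and RBPJ 99.7 ± 1.05 CPM under number 2 and 73.0 ± 4.702 CPM under number 1. NRARP had 0 counts of 85872236 in DND-41, which allows a level of up to 0.0349 CPM (3 counts, counting error only), below both MOLT-4 groups.

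The authors' deposited table for DND-41 called 8 of the 9 genes it tested, 6 lower and 2 higher. The share called in that deposited table was 36.8% of 14883 genes, 21.6% lower and 15.2% higher, so a call in itself is common, and its sign is numbered 2 over numbered 1. The largest fall there was that of DTX1 (authors' deposited table, log2 fold change -1.61, SE 0.0807, DESeq2 adjusted p = 1.57e-85), followed by NOTCH1 (-1.09, SE 0.0889, DESeq2 adjusted p = 9.59e-33) and HES1 (-1.03, SE 0.107, DESeq2 adjusted p = 2.22e-20). NOTCH2, SHQ1 and NOTCH3 had log2 fold changes of -0.92, -0.91 and -0.48 in the authors' deposited table. CR2 was higher by 2.09 (SE 0.136) and RBPJ by 0.46 (SE 0.0955) in the same deposited table, and HES4 did not pass at 0.66 (DESeq2 adjusted p = 0.438).

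Set beside each other, the authors' deposited tables gave 7 of 9 genes the same sign in both lines, 6 lower and 1 higher. That is 77.8%, beside 75.5% of 14053 genes tested in both. These shares take the DND-41 table as deposited, and with its signs turned they would be 22.2% and 24.5%. Under either sign the share among NOTCH genes is near that of all genes. The MOLT-4 counterpart among the authors' deposited tables called 35.1% of 16234 genes, 20.3% lower and 14.7% higher, and the 10 genes gave 6 lower and 2 higher. As deposited, the genes that differed in sign were CR2, at -1.28 in the deposited MOLT-4 table and 2.09 in the deposited DND-41 table, and HES4, which passed in neither, and with turned signs these would be the only 2 of the 9 alike.

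**Figure D3:**
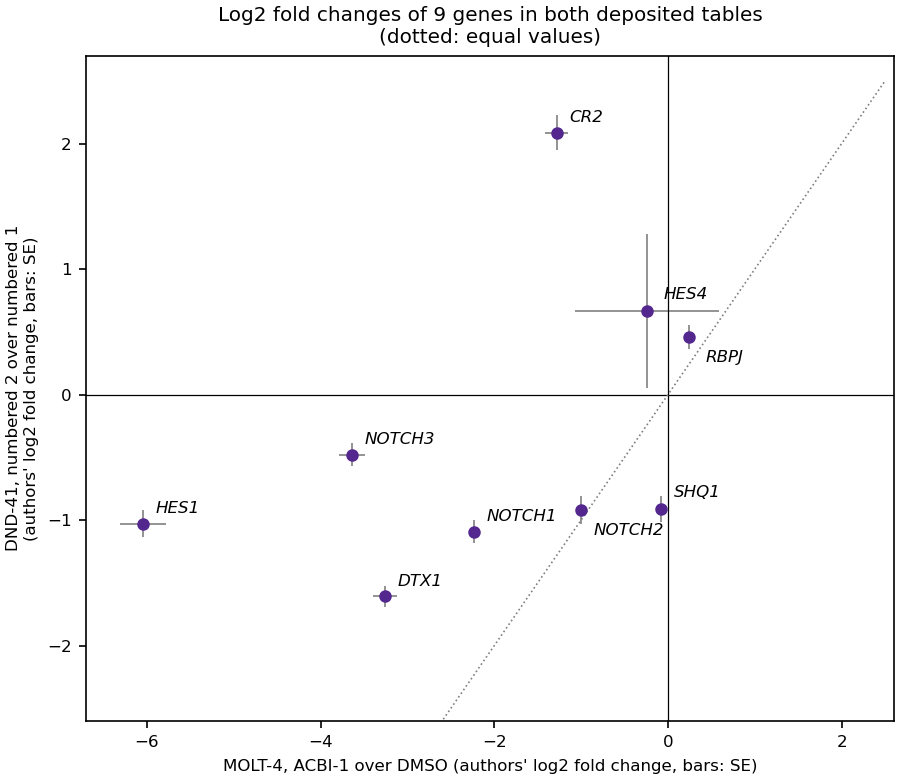
Log2 fold changes from the authors' deposited tables for the 9 genes in both, MOLT-4 (ACBI-1 over DMSO) on the x axis and DND-41 (numbered 2 over numbered 1) on the y axis, with SE bars and a dotted line of equal values. HES1 and NOTCH3 lie far left of the line, NOTCH2 on it, and CR2 in the upper left.

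The difference between the lines was tested in 2 ways. In 1 edgeR fit of the 8 libraries, the MOLT-4 effect minus the DND-41 difference as labelled was past the threshold for HES1 (-5.95, SE 0.684, edgeR adjusted p = 0.0348) and NOTCH3 (-3.71, SE 0.334, edgeR adjusted p = 0.0174). Each DND-41 label holds 1 library of each number, so this fit cannot tell whether the effect of ACBI-1 differs between the lines. Only 63 of 16047 genes, 0.393%, passed there, 0.268% with a lower and 0.125% with a higher effect in MOLT-4. NOTCH1 and DTX1 had differences of -2.40 and -3.28 that did not pass in this fit (edgeR adjusted p = 0.249 and 0.292), which takes no account of the library numbers by which DND-41 splits. Both passed by DESeq2 (DESeq2 adjusted p = 0.00452 and 0.0040). The HES1 and NOTCH3 calls ended when either MOLT-4 ACBI-1 library or either MOLT-4 DMSO library was left out, at edgeR adjusted p of 0.169 to 0.2999. The HES1 call also ended without the DND-41 library labelled ACBI-1 1 (0.0527) or labelled DMSO 2 (0.0694), and the NOTCH3 call without that labelled DMSO 2 (0.0668).

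A z test of the difference between the authors' deposited tables, from their DESeq2 standard errors and added after the data were seen, takes numbered 2 over numbered 1 as the DND-41 effect. It passed for 6 of the 9 genes, where 12.5% of 14053 genes passed. The log2 fold change of MOLT-4 minus that of DND-41 in the authors' deposited tables was -5.02 for HES1, -3.37 for CR2, -3.16 for NOTCH3, -1.65 for DTX1, -1.14 for NOTCH1 and 0.84 for SHQ1. The largest adjusted p among these 6, from the DESeq2 standard errors, was 5.77e-11. NOTCH2 differed by -0.09 (adjusted p = 0.824, DESeq2 standard errors), RBPJ by -0.21 (0.251) and HES4 by -0.90 (0.752). With the deposited DND-41 signs turned round, 48% of genes passed and the differences of CR2 (0.81, adjusted p = 7.63e-05 from the DESeq2 standard errors) and SHQ1 (-0.99) changed sign. NOTCH2 (-1.92) and RBPJ (0.70) then passed too, so what is said of these 4 genes rests on the sign, while HES1, NOTCH3, DTX1 and NOTCH1 kept a lower value in MOLT-4 under both signs.

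Levels in the 2 lines were then compared library by library. Across all 4 libraries of each line, RBPJ and SHQ1 were higher in every MOLT-4 library than in any DND-41 library, and NOTCH3 and DTX1 were lower. NRARP was higher too, but at only 26 and 17 counts with ACBI-1 and 4 and 2 with DMSO, against 0 in DND-41. It passed the filter on low counts through the MOLT-4 ACBI-1 libraries alone, so its place here is conditional on being high there. These 5 of 10 genes, NRARP included, stand beside 49.2% of 16047 genes whose lines do not overlap. RBPJ ran from 142 to 172 CPM in MOLT-4 (median 161), against 69.7 to 100.5 CPM in DND-41 (median 87.7). SHQ1 ran from 135 to 144 CPM in MOLT-4, against 42.8 to 84.9 CPM in DND-41. NOTCH3 ran from 4.22 to 61.5 CPM in MOLT-4, against 259.6 to 408 CPM in DND-41, and DTX1 from 6.28 to 70.7 CPM in MOLT-4, against 275 to 919.7 CPM in DND-41. The DND-41 line thus carried several times more NOTCH3 and DTX1 transcript whichever of its libraries is taken, while the ranges of NOTCH1, NOTCH2, HES1, HES4 and CR2 overlapped.

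Between the DMSO groups, with DND-41 as labelled, 4 of the 9 genes tested passed, beside 35.1% of 15069 genes (17.7% higher and 17.4% lower in MOLT-4). NOTCH3 averaged 58.4 ± 4.35 CPM in MOLT-4 and 315 ± 48.3 CPM in DND-41 (log2 fold change -2.45, SE 0.148, edgeR adjusted p = 0.00169). DTX1 averaged 66.0 ± 6.66 CPM in MOLT-4 and 584 ± 392 CPM in DND-41 (log2 fold change -3.16, SE 0.540, edgeR adjusted p = 0.0163). RBPJ was higher in MOLT-4 by 0.77 (edgeR adjusted p = 0.0460) and SHQ1 by 1.15 (edgeR adjusted p = 0.0429), and both calls ended without either MOLT-4 DMSO library. NOTCH1, at 840 ± 0.955 CPM in MOLT-4 and 504 ± 229 CPM in DND-41, did not pass (edgeR adjusted p = 0.153), nor did NOTCH2 (0.235), HES1 (0.933), HES4 (0.0534) or CR2 (0.987). The DND-41 group holds 1 library of each number, which sets its wide spread, and line and library preparation cannot be told apart.

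Per kilobase, the DND-41 group means were led by DTX1, at 136 ± 104 CPM per kb under the ACBI-1 label and 133 ± 89.4 under the DMSO label. Then came NOTCH1 (54.8 and 48.6), NOTCH3 (35.5 and 33.5) and HES1 (26.5 and 28.0). In the library labelled DMSO 1, however, HES1 (37.6) was slightly above NOTCH3 (37.2). In MOLT-4 DMSO cells DTX1 came after NOTCH1, HES1, SHQ1 and RBPJ, and NOTCH3 came after all genes but HES4 and NRARP. DTX1 was above NOTCH1 in each DND-41 library, at 209.6 and 62.6 against 76.8 and 32.8 CPM per kb under the ACBI-1 label and 196 and 69.8 against 64.1 and 33.0 under the DMSO label. The wide SDs of both genes go with the split by number.

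The rest of the pathway moved less evenly in MOLT-4. Of 78 further NOTCH pathway and target genes in 8 lists, 68 were tested, and 24 rose and 27 fell, beside the 28.2% higher and 30.2% lower of all genes. Of 17 other NOTCH1 targets of T-cell leukaemia, 10 fell and 4 rose, with a median log2 fold change of -0.21. CD44, an adhesion receptor, had 10.96 and 10.6 CPM with ACBI-1, against 56.0 and 56.7 CPM with DMSO (log2 fold change -2.37, edgeR adjusted p = 3.15e-29). IGF1R, the receptor of insulin-like growth factor, had 36.3 and 37.1 CPM with ACBI-1, against 105 and 109 CPM with DMSO (log2 fold change -1.52, edgeR adjusted p = 1.53e-27). CDK6, a cyclin-dependent kinase of the G1 phase, fell by 1.02 on the log2 scale. TRIB1, a Tribbles pseudokinase, went the other way, at 21.6 and 21.5 CPM with ACBI-1, against 1.54 and 1.15 CPM with DMSO (log2 fold change 4.01, edgeR adjusted p = 1.84e-26). Among the called rises of this list TRIB1 stood alone in size, as the others were at most 0.55 on the log2 scale. Several of the called falls were larger than 1. Whether NOTCH1 acts on TRIB1 or on the other genes of this list was not tested.

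Genes that act on the receptor before its release were split as well. The counts of these lists stand beside 58.4% called among all genes, 28.2% higher and 30.2% lower. Of 5 ligands 2 were tested, and DLL3, an atypical ligand, was higher at 1.59 ± 0.349 CPM with ACBI-1 and 0.723 ± 0.0368 CPM with DMSO (log2 fold change 1.15, edgeR adjusted p = 0.00231). Of 5 glycosylation genes 4 were tested, 2 fell and 1 rose, led by the Fringe glycosyltransferase MFNG at -1.16, with POFUT1 at -0.24 and RFNG at 0.36. Of 9 genes for cleavage 2 fell, the metalloprotease ADAM10 (-0.69) and the γ-secretase subunit APH1A (-0.48), and 4 rose, among them the proprotein convertase FURIN (0.55).

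In the nucleus, 4 of 8 coactivators rose and the other 4 did not pass the test, against the same 58.4% of all genes called. The acetyltransferase KAT2B (1.04) and the Mastermind protein MAML2 (1.20) had the highest values of the named genes, with CREBBP (0.41) and MAML1 (0.14) below them. MAML2 was barely expressed, at 1.59 ± 0.368 CPM with ACBI-1 and 0.698 ± 0.213 CPM with DMSO. Of 13 corepressors of RBPJ, 8 fell and 4 rose. TLE3 fell by 0.60 on the log2 scale, while TLE1 rose by 0.95 and RCOR1 by 0.42. Of 14 genes for receptor turnover 13 were tested, 6 rose and 4 fell, led by the ubiquitin ligases DTX3 (0.63), NEDD4 (0.57), DTX2 (0.45) and DTX3L (-0.39). Of the 7 other HES and HEY genes 2 passed the filter, and HES6 fell by 1.41. The Deltex relatives of DTX1 thus had values far smaller than its -3.25.

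**Figure D4:**
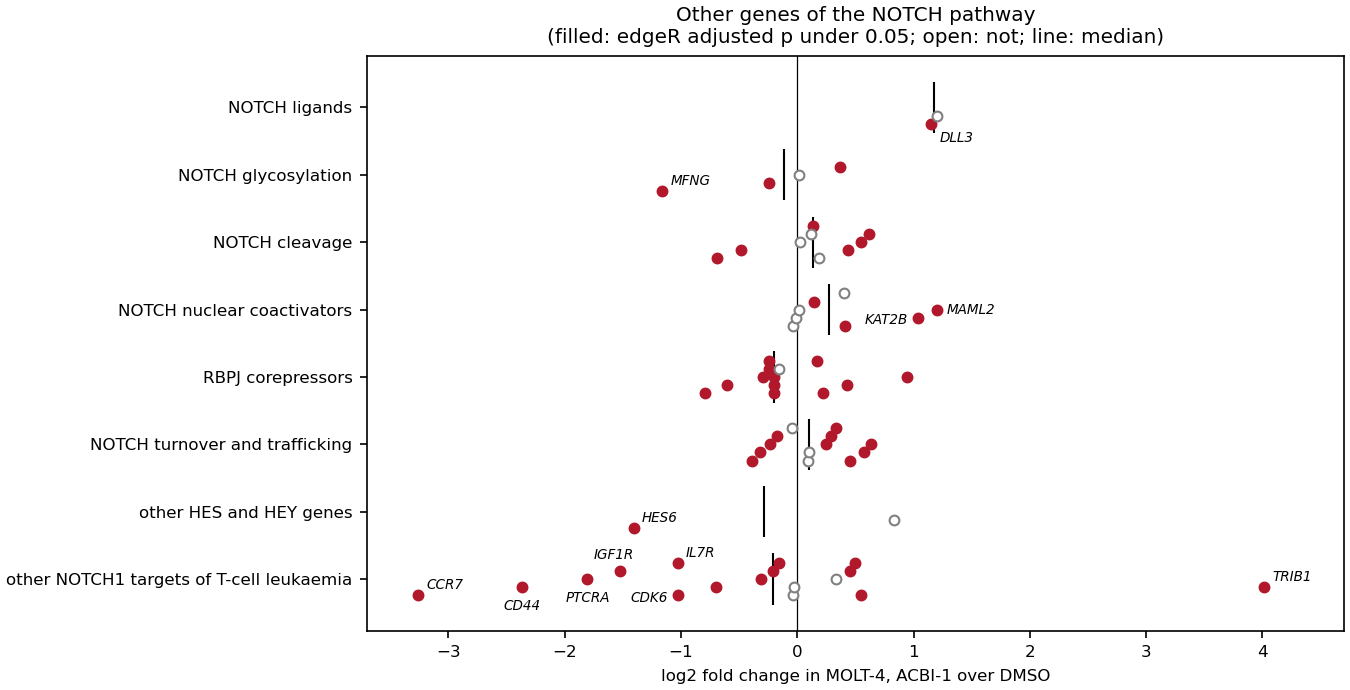
Log2 fold changes in MOLT-4, ACBI-1 over DMSO (x axis), of the tested genes of 8 NOTCH pathway lists (rows), filled where the edgeR adjusted p was under 0.05, with a line at each list's median and names for called genes at 1 or more in size. Most genes lie between -1 and 1, and the widest spread, up to 4.01 for TRIB1, is among other NOTCH1 targets.

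The authors' deposited table for DND-41, numbered 2 over numbered 1, gave 7 lower and 4 higher of 16 tested genes among the other NOTCH1 targets, beside 21.6% lower and 15.2% higher of all genes in it. CDK6 and CD44 had log2 fold changes of -1.10 and -1.01 in that deposited table, and TRIB1 1.97, while IGF1R did not pass at -0.16 (DESeq2 adjusted p = 0.137). Of 3 other lists, the authors' deposited table had 4 higher and 1 lower of 8 coactivators, 2 higher and 6 lower of 12 corepressors tested, and 3 higher and 2 lower of 8 cleavage genes tested. MFNG had -1.16 in the edgeR fit of MOLT-4 and -1.30 for DND-41 in the authors' deposited table. T-lineage genes in MOLT-4 moved in the same libraries, with CD7 at -2.63, CD2 at -1.92 and PTCRA at -1.80 on the log2 scale and CD3G at 0.64. Of the 7 genes 4 fell and 2 rose, beside 30.2% lower and 28.2% higher of all genes in the edgeR fit of MOLT-4. PTCRA is also counted among the other NOTCH1 targets. The part of the T-lineage genes in the NOTCH values was not tested.

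Some genes followed NOTCH1 or HES1 closely over the 8 libraries. Among 9888 genes with a mean of at least 5 CPM, the levels most like HES1 by Pearson's r of log2(CPM + 1) were those of LCP2 (0.998), PSD4 (0.997) and ARHGAP9 (0.994). LCP2, an adaptor of T-cell receptor signalling, averaged 30.2 CPM in MOLT-4 ACBI-1 and 126 CPM in MOLT-4 DMSO, and 98.1 CPM in DND-41 numbered 2 and 139.7 CPM in DND-41 numbered 1. The genes most like NOTCH1 were TMEM9B (0.999), P2RX5 (0.996) and CD82 (0.993). CD82, a tetraspanin, averaged 17.2 CPM in MOLT-4 ACBI-1 and 114 CPM in MOLT-4 DMSO. TMEM9B averaged only 13.4 CPM in MOLT-4 ACBI-1 and 17.6 CPM in MOLT-4 DMSO, so a high r does not mean a change of like size. The 8 points share 2 lines and the split within each, so these values describe a shared pattern only.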

How the data were processed

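Total RNA of 8 libraries of 2 cell lines was sequenced. The submitters' processing notes name hg19, STAR 2.5.2a as aligner, featureCounts for counting and DESeq2 1.12.4 for the comparison. The strand setting, annotation and treatment of shared reads are not given in the sources used here, and such steps can move counts between gene copies. In GENCODE 29 the exons of the 10 genes overlap 0 other genes. Raw counts were deposited for 63677 Ensembl genes in each of 2 tables, with 0 columns left unassigned. The authors also deposited log2 fold changes with SE, p-values, a Wald score, and a mean normalised signal per gene. Per the file headers, names of MOLT-4 columns end in "redo", which no source used here explains.

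Counts were tested by the 2-sided quasi-likelihood test of edgeR 4.0.16, run in R 4.3.3 with TMM scaling and filterByExpr at a minimum count of 10, each line on its own, with p-values adjusted by Benjamini and Hochberg over all genes tested and a threshold of 0.05. The difference between lines was an interaction in 1 fit, and the lines in DMSO were compared likewise. Exon lengths came from GENCODE 29 and were found for 52526 of the counted genes. Totals of 21308737 to 22067644 counts set the precision. The fits were checked on simulated counts. Alternatives were DESeq2 1.42.0, other scaling and filters, a replicate block, a shared spread and leaving out each library. The genes and lists were chosen with earlier results of these data known. All 10 genes are named, and of each other list up to 4 genes with the smallest edgeR adjusted p in MOLT-4. Values of 2 genes that this rule picks are not reported here. NOTCH1 and HES1 each have the 3 genes of most similar pattern. CCR7 and IL7R are named in a figure for a change of 1 or more, chosen after their values were seen. Protein sequences were not used here.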

Additional observations from a re-analysis of the deposited data

Results flagged for a closer look

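In the edgeR interaction test 4 named genes passed, for MOLT-4 ACBI-1 over DMSO minus DND-41 labelled ACBI-1 over labelled DMSO. Each DND-41 label holds 1 library of each number, so its labelled difference averages over the split by number. Whether the effect of ACBI-1 differs between the lines cannot be told from this test. The differences of log2 fold changes were -3.71 for NOTCH3 (edgeR adjusted p = 0.0174), -5.95 for HES1 (0.0348), -1.58 for the growth factor receptor IGF1R (0.0167) and -1.58 for the T-cell adhesion molecule CD2 (0.0167). Of 16047 genes 63, or 0.393%, passed. Without either MOLT-4 ACBI-1 library 0 genes passed (962 and 934 at an unadjusted p under 0.05), and without either MOLT-4 DMSO library 1 did, so at most 1 of the 4 calls stays without such a library. The DND-41 labels that this test uses are contradicted by the authors' deposited table. In the edgeR fit of MOLT-4 IGF1R had -1.52 and CD2 -1.92, against -0.16 and -0.04 for DND-41 in the authors' deposited table, neither of which passed there.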

How the results depend on the processing

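In MOLT-4 the 10 genes kept 7 or 8 calls under every alternative but 1, and none changed sign among those called. In 1 fit with the spread shared by all 8 libraries, 2 of the 10 genes, 544 of the 16047 genes tested and 6 of the other listed genes were called. DESeq2 called 5682 genes in all, against 8533. Scaling by total counts moved the median of all genes to 0.13 and gave 5804 higher and 3031 lower, against 4120 and 4413 with TMM. In DND-41 as labelled, the replicate block called 2 of the 10 genes (NOTCH1 0.14, edgeR adjusted p = 0.0346, and NOTCH2 0.26, 9.49e-06), 1349 of the 14602 genes tested and 12 listed genes. For the interaction, DESeq2 called 4 of the 10 genes (NOTCH1 and DTX1 added), 367 of all and 4 listed. The replicate block called 7 of the 10 genes, 5860 of the 16047 genes tested and 39 listed. Leaving out 1 library left 0 to 2 of the 10 genes, 0 to 49 of all and 0 to 1 listed. Between lines in DMSO, no filter left 2 of the 10 genes. All 4 libraries against 4 gave 7 of the 10 genes and 8566 of the 16047 genes tested. Leaving out 1 library gave 2 to 9 of the 10 genes, 2162 to 11316 of all and 13 to 61 listed, with HES1 between -0.47 and 0.57 and CR2 between -0.67 and 1.49, both with their sign turned without DND-41 DMSO replicate 1. The DND-41 DMSO library then left, numbered 2, stood at 37.8 CPM for HES1 and 53.0 CPM for CR2, against 77.5 and 11.8 CPM in that numbered 1. The cause of this split by number was not tested. Same-numbered libraries deviated together in DND-41 (r = 0.934) and not in MOLT-4 (0.0184), but with 2 pairs a line they are taken to share only a number, and the replicate block changed no call of the 10 genes in MOLT-4. With 2 libraries per group, precision is limited, and HES4 and NRARP rest on few counts.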
